A study of Mus musculus with 6 samples.

Results

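The 10 genes described here encode the insulin-like growth factor (IGF) system of the liver: the hormone gene Igf1, the growth hormone receptor gene Ghr, the acid-labile subunit gene Igfals and the IGF-binding protein genes Igfbp1 to Igfbp7. They were taken as a list of known components, and every probe set whose platform annotation gave 1 of these symbols was kept. Each of the 10 genes had exactly 1 probe set, so that 10 of the 22180 genes with a single-symbol probe set, and 10 of all 41345 probe sets, are described. The signals came from livers of mice with a knockout of Creb3l3 (allele Creb3l3tm1.1Sad/J), the gene of the liver transcription factor CREB-H, which is cut from the endoplasmic reticulum membrane to become active. The CREB-H-ΔTC group received an intraperitoneal injection of a liver-targeting adeno-associated virus (AAV) that carried the active form of CREB-H, and the GFP group received the same kind of virus with green fluorescent protein. Each group held 3 mice, the animals are given as 8 weeks old, and all livers were taken 2 weeks after injection and read on 1 array each. The knockout is shared by both groups, so that the comparison sets an active fragment against none, and not against a normal level of CREB-H. All animals were fed a normal diet. Neither the promoter of the vector nor the share of hepatocytes it reached is stated in the labels.

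Growth hormone from the pituitary binds its receptor on hepatocytes and, through the kinase JAK2 and the transcription factor STAT5B, drives transcription of Igf1 and Igfals. IGF-1 circulates bound to binding proteins, mostly in a ternary complex of IGF, IGFBP3 or IGFBP5 and the acid-labile subunit, which keeps the hormone in the blood for longer. IGFBP1 and IGFBP2 form smaller complexes outside that system, and the hepatic Igfbp1 gene is known for its strong repression by insulin and its induction on fasting. In liver, Igf1, Igfals, Igfbp1, Igfbp2 and Igfbp4 are made largely by hepatocytes, whereas in rats Igfbp3 transcripts were traced to cells other than hepatocytes.

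Promoter sequence is shown for the gene with the largest difference between the groups that was also free of overlap, Igfbp2, and for the 2 genes whose windows held a motif of a pathway described below, Igfbp1 and Igfals. Each run is the 250 bases before an annotated RefSeq transcription start (build GRCm38.p6, plus strand in all 3), at chr1:72824230-72824479 for Igfbp2, chr11:7197537-7197786 for Igfbp1 and chr17:24877594-24877843 for Igfals. Capitals mark a match to 1 of 4 searched motifs: the cAMP response element TGACGTCA, its half-site TGACG, the STAT motif TTCNNNGAA and the insulin response element CAAAACA, each on both strands.
Igfbp2: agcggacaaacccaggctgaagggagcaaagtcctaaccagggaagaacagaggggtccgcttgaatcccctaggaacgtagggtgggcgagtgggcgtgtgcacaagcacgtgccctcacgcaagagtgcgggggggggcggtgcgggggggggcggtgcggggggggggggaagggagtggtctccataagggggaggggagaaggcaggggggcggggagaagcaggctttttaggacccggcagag
Igfbp1: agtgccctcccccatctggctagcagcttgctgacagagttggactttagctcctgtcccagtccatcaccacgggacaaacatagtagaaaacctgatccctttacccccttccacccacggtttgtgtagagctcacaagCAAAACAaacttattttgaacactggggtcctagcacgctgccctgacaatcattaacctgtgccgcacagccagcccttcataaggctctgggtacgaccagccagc
Igfals: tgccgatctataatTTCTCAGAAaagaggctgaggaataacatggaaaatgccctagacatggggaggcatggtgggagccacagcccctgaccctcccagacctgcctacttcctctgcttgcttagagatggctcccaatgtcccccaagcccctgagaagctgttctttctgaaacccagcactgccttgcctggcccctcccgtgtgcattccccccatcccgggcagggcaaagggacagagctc
All 10 genes matched the RefSeq promoter table, with 14 start sites between them. The full cAMP response element, the palindrome to which CREB family factors bind, was in none of the 14 windows, against 1.55% of all 32851 windows of the same length. Its half-site, which is part of the full element, was in 1 window of Igfals, 20 to 16 bases before the start at a further start site, against 17.8% of all windows. The STAT motif was in 2 windows of Igfals (TTCTCAGAA, 236 to 228 bases before the start in the window shown, and TTCCTAGAA, 58 to 50 bases before the start in the other), against 7.02% of all windows. The insulin response element, a FOXO1 site in Igfbp1, was found 108 to 102 bases before the Igfbp1 start and in no other window of the 10 genes, against 5.56% of all windows. A match is only a match of letters and gives no evidence that a factor was bound.

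Array medians lay between 4.98 and 5.01 on the log2 scale and no 2 arrays correlated below 0.976 over all probe sets. Creb3l3, the supplied gene, had signals of 6.73, 7.25 and 7.58 in CREB-H-ΔTC livers, against 6.55, 5.93 and 6.40 in GFP livers, in the direction of the labels but short of the threshold (limma adjusted p = 0.647). Apoa4, an apolipoprotein gene, was 1 of 2 probe sets of the whole table that passed, with 13.53, 13.12 and 13.62 in CREB-H-ΔTC livers, against 9.71, 9.94 and 9.50 in GFP livers (limma adjusted p = 0.00786, and 0.0681 without GFP replicate 3). Hepatocyte markers were bright on all arrays, with a mean log2 signal over 8 markers of 11.9 to 12.1 in CREB-H-ΔTC livers and 11.9 to 12.1 in GFP livers. Replicate 3 of each group carried signal of Y-linked genes. The average of Eif2s3y, Kdm5d and Uty was 7.67 in CREB-H-ΔTC replicate 3 and 7.83 in GFP replicate 3, against 3.15 to 3.39 on the other arrays. Xist, the RNA gene of the inactive X chromosome, was the reverse. It had 3.75 in CREB-H-ΔTC replicate 3 and 4.43 in GFP replicate 3, against 10.83 to 11.35 on the other arrays. The labels name no sex, but by these genes replicate 3 of each group read as male and the other arrays as female. GFP replicate 3 stood apart in further genes, among them the metallothionein gene Mt2, picked after its values were seen, at 7.13 against 12.5 to 13.0 on the other 5 arrays. The differences of the 10 genes are therefore given with and without that array.

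The comparison asks which genes of the system differ when active CREB-H is supplied to livers without it. Igfbp2 had the largest difference of the 10 genes and no overlap between the groups, at 1.70 times the GFP level (95% interval 1.30 to 2.23), and Igf1 was slightly lower without overlap, at 0.87 times. The other 8 genes had overlapping groups, and none of the 10 passed limma's test once p-values were adjusted by the Benjamini-Hochberg method across the 41345 probe sets (adjusted p = 0.613 to 0.995). In that comparison 0.00484% of all probe sets passed. At an unadjusted p under 0.05, 1 of the 10 (Igfbp2) was counted, beside 6.89% of all probe sets. Groups did not overlap in 2 of the 10, beside 12.3% of all probe sets: 1 was higher (Igfbp2), beside 5.23%, and 1 lower (Igf1), beside 7.1%. Both counts were near the background. Without GFP replicate 3, 1 of the 10 had an unadjusted p under 0.05, beside 7.63%, 2 had no overlap, beside 25.1%, and 0 passed, beside 0% of all probe sets. The log2 difference was above 0 in 6 genes and below 0 in 4, with a median of 0.11 against 0.0030 over all genes. Without GFP replicate 3 it was above 0 in 3 and below 0 in 7, with a median of -0.11. That setting leaves Y-linked signal in 1 CREB-H-ΔTC array and in no GFP array. Among the 4 arrays without Y-linked signal the log2 difference was above 0 in 6 genes, with a median of 0.029. In whole liver, fewer cells of a type and less RNA per cell cannot be told apart.

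**Figure D1:**
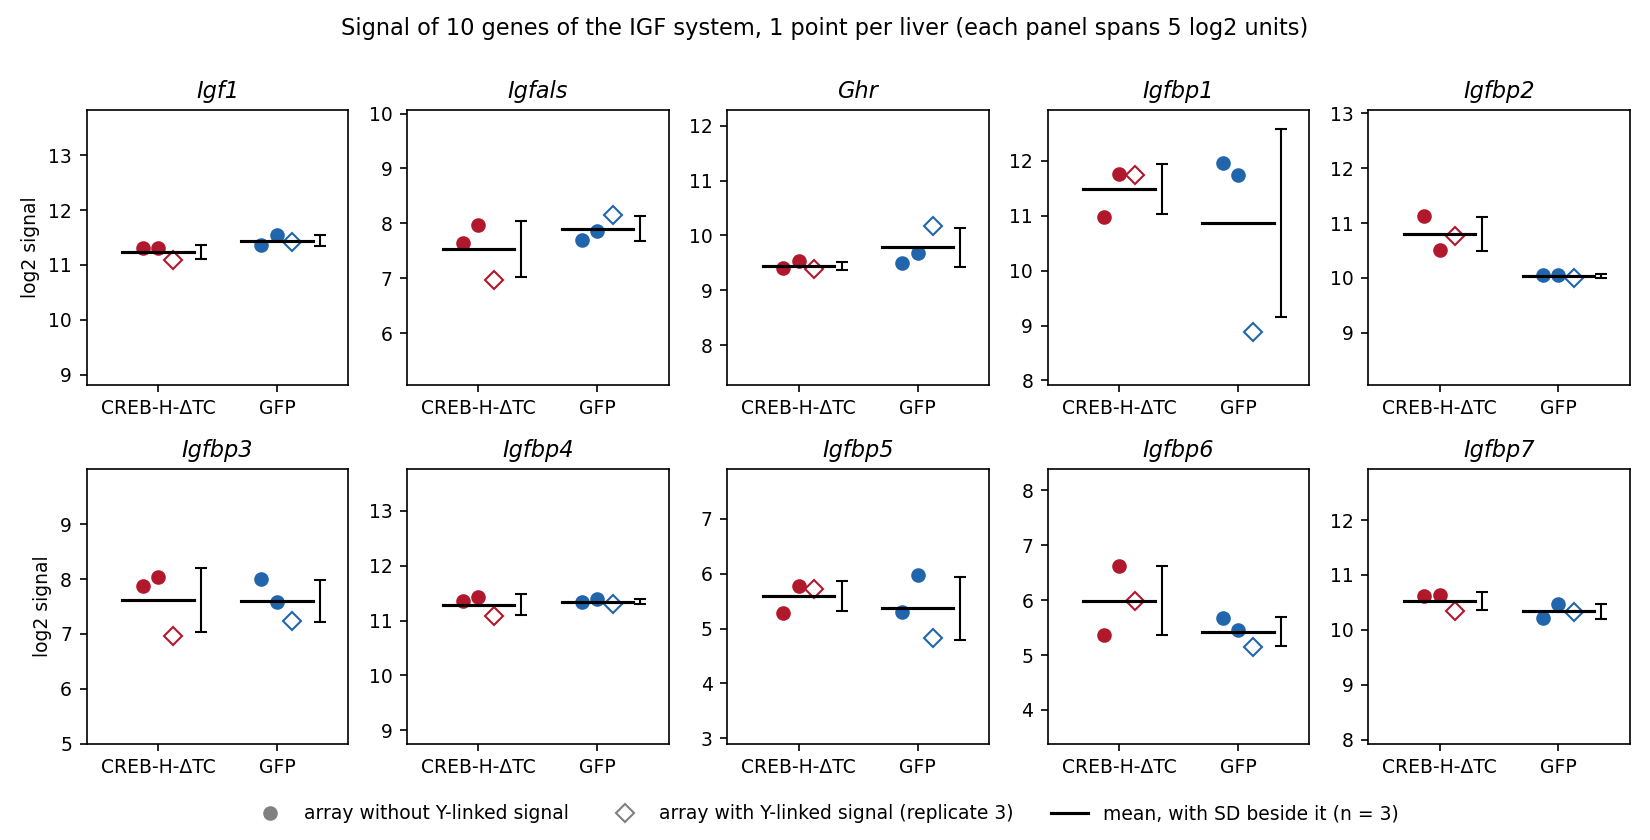
Log2 signal (vertical axis) of the 10 genes on each array, CREB-H-ΔTC left and GFP right in each panel; filled circles are arrays without Y-linked signal, open diamonds replicate 3 with it, horizontal lines the mean and bars the SD of 3 livers. Igfbp2 separates the groups, and the single low point of Igfbp1 is GFP replicate 3 at 8.89.

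Igf1, the hormone itself, had log2 signals of 11.31, 11.31 and 11.09 in CREB-H-ΔTC livers, against 11.36, 11.55 and 11.42 in GFP livers. All 3 CREB-H-ΔTC values lay below all 3 GFP values, though the nearest values, 11.31 and 11.36, lay closer together than the SD of either group. The means were 11.23 ± 0.13 in CREB-H-ΔTC livers and 11.44 ± 0.10 in GFP livers (SD, n = 3 each), a log2 difference of -0.21 with a standard error (SE) of 0.11 and a 95% interval of -0.48 to 0.066. It did not pass (limma adjusted p = 0.809), and an exact permutation test (two-sided) gave p = 0.1, which is the lowest value that 3 against 3 arrays can reach. The groups also did not overlap without GFP replicate 3, with a difference of -0.22 (SE 0.13). The interval allows a level between 0.72 and 1.05 times that of GFP livers. Profiles were compared among genes with a mean signal of at least 6 and an SD at least 0.8 times that of Igf1. Predicted and clone names were left out. Those with the most similar profile were Cdk12, Xpnpep3, Pgam1, Mocs3 and Snord58b. Their root mean square differences from Igf1 over the 6 arrays were 0.042 to 0.048 log2 units after each gene's own mean was subtracted, among 6095 candidates. Igf1 itself had an SD of 0.15 over the 6 arrays, so the likeness is measured within a small spread.

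Ghr, the receptor through which growth hormone drives Igf1, had signals of 9.41, 9.53 and 9.38 in CREB-H-ΔTC livers, against 9.50, 9.67 and 10.18 in GFP livers. GFP replicate 3 was the highest array, and the groups overlapped because CREB-H-ΔTC replicate 2 lay above GFP replicate 1. Ghr differed by -0.34 on the log2 scale (SE 0.18, 95% interval -0.78 to 0.091, limma adjusted p = 0.801). Without GFP replicate 3 the difference was smaller in size, at -0.15 (SE 0.12).

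Igfals encodes the acid-labile subunit of the ternary complex, and the STAT motifs of its windows are given above. Its signals were 7.64, 7.97 and 6.97 in CREB-H-ΔTC livers, against 7.70, 7.86 and 8.15 in GFP livers. The lowest and the highest value both came from replicate 3, the arrays with Y-linked signal, and the other 4 arrays overlapped. Between the groups Igfals differed by -0.38 log2 units (SE 0.26, 95% interval -1.01 to 0.25, limma adjusted p = 0.848) and -0.26 (SE 0.30) without GFP replicate 3. The 4 arrays that lacked Y-linked signal gave 0.023 (SE 0.17), and the replicate 3 pair gave -1.19. A limma test of the difference between these values, added after the data were seen, did not pass (adjusted p = 0.622).

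Igfbp2 encodes a binding protein that hepatocytes secrete into the blood. Its signals were 11.12, 10.51 and 10.77 in CREB-H-ΔTC livers, against 10.06, 10.05 and 9.99 in GFP livers. Every CREB-H-ΔTC array lay above every GFP array, and the GFP arrays lay close together. The means were 10.80 ± 0.31 in CREB-H-ΔTC livers and 10.03 ± 0.034 in GFP livers (SD, n = 3 each), a log2 difference of 0.77 (SE 0.16, 95% interval 0.38 to 1.15). The limma adjusted p was 0.613 and the exact permutation p 0.1, again the lowest that can be reached. The difference was 0.75 (SE 0.19) without GFP replicate 3, 0.76 (SE 0.23) among the 4 arrays that lacked Y-linked signal and 0.78 for the replicate 3 pair. Its range over the 18 alternatives was 0.61 to 0.91. No other gene of the 10 had an interval that left out 0.

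The 5 genes with profiles most like that of Igfbp2 were Slc8b1, Tmem184b, H2-Eb1, Rasa3 and Gys2, with root mean square differences of 0.12 to 0.16 log2 units over the 6 arrays among 977 candidates. Slc8b1, the mitochondrial sodium-calcium exchanger, had signals of 9.88, 9.51 and 9.39 in CREB-H-ΔTC livers, against 8.81, 8.88 and 8.75 in GFP livers. Gys2, the liver glycogen synthase, had 12.50, 11.97 and 12.56 in CREB-H-ΔTC livers, against 11.33, 11.40 and 11.45 in GFP livers. H2-Eb1, an MHC class II chain of antigen-presenting cells, had 7.89, 7.43 and 7.61 in CREB-H-ΔTC livers, against 6.84, 7.24 and 6.85 in GFP livers. In all 5 the groups did not overlap, as the likeness to Igfbp2 itself brings about.

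Igfbp1, the insulin-repressed and fasting-induced binding protein of the hepatocyte, had signals of 10.97, 11.76 and 11.75 in CREB-H-ΔTC livers, against 11.96, 11.75 and 8.89 in GFP livers. GFP replicate 3 lay 2.08 log2 units below the next lowest array, and the other 5 arrays spanned 10.97 to 11.96 with the groups mixed. A gap of at least 1 below all other arrays in GFP replicate 3 was found in 1 of the 10 genes, beside 0.177% of all probe sets. The log2 difference was 0.63 with all arrays (SE 0.79, 95% interval -1.25 to 2.50, limma adjusted p = 0.916) and -0.36 without GFP replicate 3 (SE 0.27, 95% interval -1.02 to 0.30, adjusted p = 0.797). The sign of the Igfbp1 difference was thus set by 1 array. The 4 arrays that lacked Y-linked signal gave -0.49 (SE 0.29) and the replicate 3 pair 2.86, and the limma test of that contrast did not pass (adjusted p = 0.503).

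The profiles most like that of Igfbp1 were those of Cyp17a1, Lpin1, Mt1, Cyp39a1 and Vcam1 (root mean square differences 0.33 to 0.52 log2 units, 112 candidates). Lpin1, a phosphatidate phosphatase and coactivator induced by fasting, had 11.66, 11.72 and 11.26 in CREB-H-ΔTC livers, against 11.59, 11.77 and 8.46 in GFP livers. Cyp17a1, a steroid hydroxylase, had 11.43, 11.69 and 12.07 in CREB-H-ΔTC livers, against 11.65, 11.93 and 8.45 in GFP livers. Mt1, a metallothionein induced by zinc and glucocorticoids, had 11.79, 11.85 and 11.65 in CREB-H-ΔTC livers, against 11.69, 11.57 and 8.16 in GFP livers. All 3 had their single low value in GFP replicate 3, as Igfbp1 did, which their choice by likeness to Igfbp1 brings about.

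**Figure D2:**
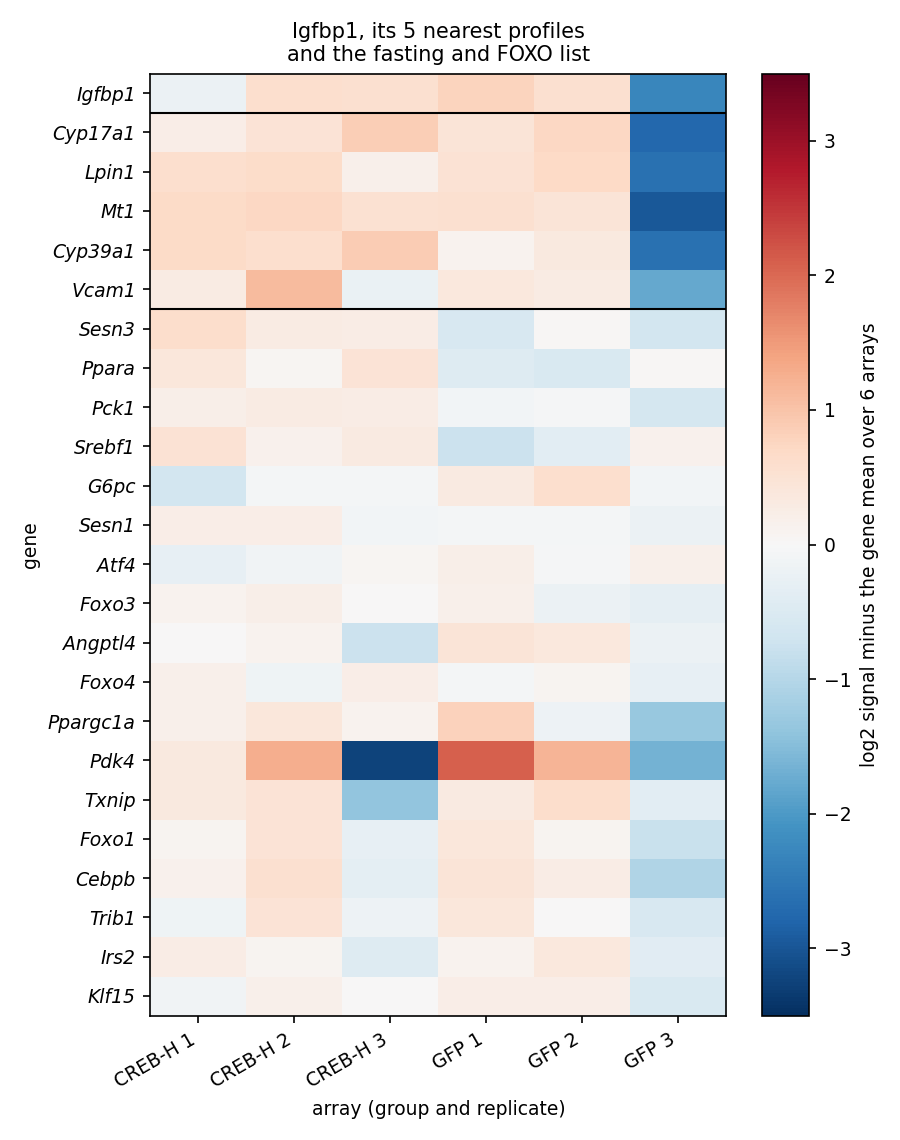
Log2 signal minus each gene's mean over the 6 arrays (colour; columns are arrays, CREB-H-ΔTC left and GFP right; rows are genes) for Igfbp1 (top), its 5 nearest profiles (middle) and the other 18 measured genes of the fasting and FOXO list (bottom). Igfbp1 and its nearest profiles share a single low column, GFP replicate 3, as the choice by likeness brings about. Pdk4 is low on both replicate 3 arrays.

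A list of 20 genes that respond to fasting or FOXO factors, 19 of them measured, gives the setting of Igfbp1. None of the 19 passed the limma test over all probe sets, and 4 had an unadjusted p under 0.05, all higher with CREB-H-ΔTC, beside 2.93% of all probe sets in that direction. These were Sesn3 (log2 difference 0.77, SE 0.21), a sestrin and FOXO target, and Ppara (0.63, SE 0.19), the nuclear receptor of the fasting response. The other two were Pck1 (0.49, SE 0.17), the gluconeogenic carboxykinase, and Srebf1 (0.65, SE 0.23), an activator of fatty acid synthesis that insulin induces. Without GFP replicate 3 the differences were 0.64 for Sesn3, 0.80 for Ppara, 0.31 for Pck1 and 0.89 for Srebf1. In that setting 5 of the 19 had an unadjusted p under 0.05, beside 7.63% of all probe sets, and 7 of the 19 were above 0. The fifth gene, G6pc, the glucose-6-phosphatase of gluconeogenesis and a FOXO target, is named after its values were seen and lay the other way. It had 11.12, 11.71 and 11.71 in CREB-H-ΔTC livers, against 12.08, 12.36 and 11.67 in GFP livers, a difference of -0.52 with all arrays and -0.71 without GFP replicate 3. The list median was 0.19 with all arrays and -0.15 without GFP replicate 3, against 0.0030 over all genes. GFP replicate 3 was the lowest of the 6 arrays in 11 of the 19 genes, beside 16.8% of all probe sets. The coactivator gene Ppargc1a, singled out after its values were seen, was among these, at 7.77 against 8.94 to 9.90 on the other arrays. In 9 of the 19 genes both replicate 3 arrays lay beyond the other 4, beside 19% of all probe sets, and some genes were in both counts. Whether the animals were fed or fasted at collection is not stated in the labels, and its part in the Igfbp1 values was not tested.

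Igfbp3, the main carrier in the ternary complex, had signals of 7.88, 8.04 and 6.96 in CREB-H-ΔTC livers, against 8.00, 7.57 and 7.24 in GFP livers. The groups overlapped, and both replicate 3 arrays lay below the other 4. Igfbp3 differed by 0.022 log2 units (SE 0.32, 95% interval -0.74 to 0.79, limma adjusted p = 0.995) and -0.16 (SE 0.35) without GFP replicate 3. The 4 arrays that lacked Y-linked signal gave 0.17 (SE 0.19) for Igfbp3, and the replicate 3 pair gave -0.28. Igfbp4, a hepatocyte product that holds IGFs away from their receptor, had 11.36, 11.43 and 11.08 in CREB-H-ΔTC livers, against 11.34, 11.39 and 11.30 in GFP livers. The groups again overlapped, with both replicate 3 arrays lowest, and the difference was -0.049 (SE 0.12, 95% interval -0.34 to 0.24), or -0.068 (SE 0.14) without GFP replicate 3. Igfbp3 and Igfbp4 were the 2 of the 10 genes in which both arrays with Y-linked signal lay beyond all others, beside 19% of all probe sets.

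Igfbp5, which binds extracellular matrix and can also join the ternary complex, had signals of 5.29, 5.78 and 5.72 in CREB-H-ΔTC livers, against 5.30, 5.97 and 4.83 in GFP livers. The GFP arrays included both the highest and the lowest value. The signal was dim, against array medians of 4.98 to 5.01, and GFP replicate 3 lay below them. The log2 difference was 0.23 (SE 0.29, 95% interval -0.47 to 0.93) and -0.041 (SE 0.25) without GFP replicate 3. In the GRCm38.p6 assembly Igfbp5 is the neighbour of Igfbp2 on chromosome 1, and Igfbp3 that of Igfbp1 on chromosome 11. In neither pair did both genes separate the groups. Igfbp7, a related secreted protein of endothelial and stromal cells that binds IGFs weakly, had 10.61, 10.64 and 10.34 in CREB-H-ΔTC livers, against 10.21, 10.48 and 10.32 in GFP livers. CREB-H-ΔTC replicate 3 fell within the GFP range, and the difference was 0.19 (SE 0.13, 95% interval -0.12 to 0.50). It was 0.18 (SE 0.15) without GFP replicate 3.

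**Figure D3:**
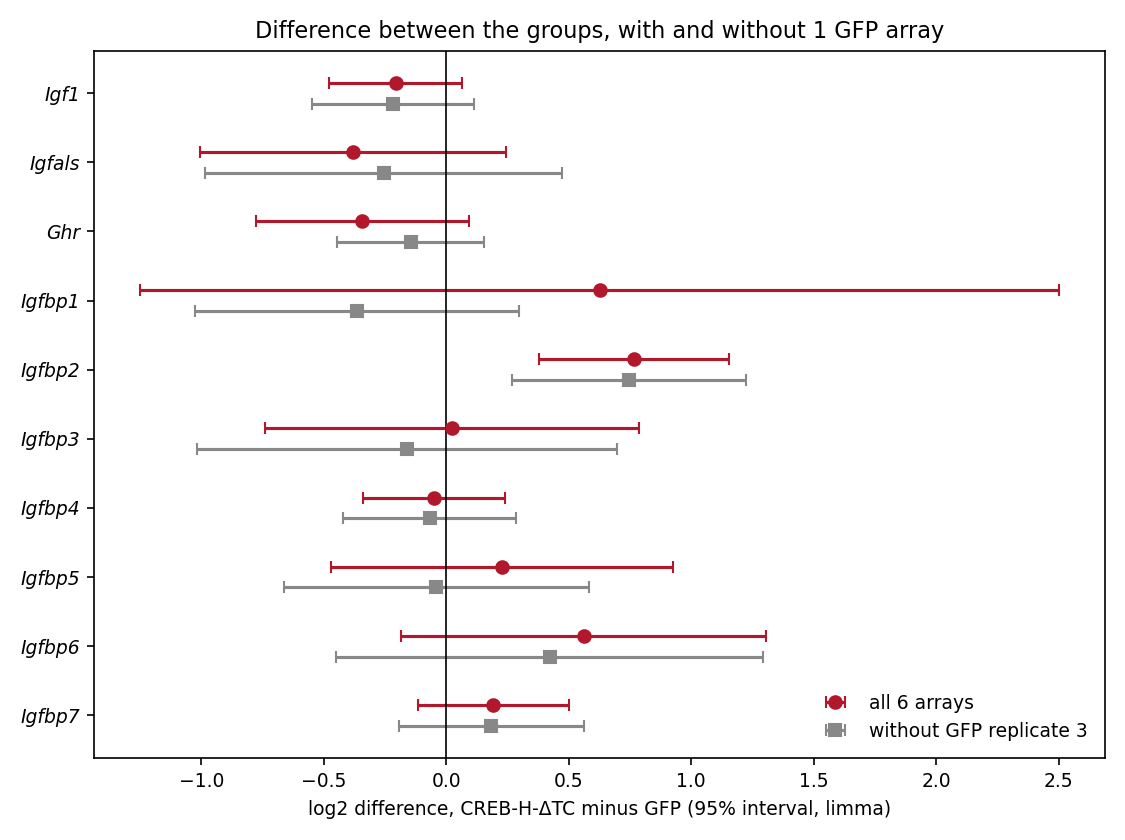
Log2 difference, CREB-H-ΔTC minus GFP (horizontal axis), with its 95% limma interval for each of the 10 genes, from all 6 arrays (red circles) and without GFP replicate 3 (grey squares). Only the Igfbp2 intervals leave out 0, at 0.38 to 1.15 and 0.27 to 1.23, and the Igfbp1, Igfbp3 and Igfbp5 estimates change sign.

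Igfbp6, which prefers IGF-2 over IGF-1, had signals of 5.37, 6.62 and 5.98 in CREB-H-ΔTC livers, against 5.68, 5.46 and 5.15 in GFP livers. The highest value was that of CREB-H-ΔTC replicate 2, and CREB-H-ΔTC replicate 1 lay among the GFP arrays. The signals were low, against array medians of 4.98 to 5.01. The log2 difference was 0.56 (SE 0.31, 95% interval -0.18 to 1.31, limma adjusted p = 0.811), 0.42 (SE 0.35) without GFP replicate 3, and 0.25 without CREB-H-ΔTC replicate 2. Most markers of the mesothelial cells that cover the liver surface were also highest in CREB-H-ΔTC replicate 2. Of 6 markers, 5 had a log2 difference above 0, and 3 had an unadjusted p under 0.05 (none passed after adjustment): Gpm6a (0.83, SE 0.29), Msln (0.41, SE 0.15) and Upk3b (0.66, SE 0.25). All 3 were higher, beside 2.93% of all probe sets in that direction, and without GFP replicate 3 the count was 0, beside 7.63%. Lrrn4 differed by 0.36 (SE 0.21) and Wt1 by -0.20 (SE 0.15). In 5 of the 6 the highest array was CREB-H-ΔTC replicate 2, beside 15% of all probe sets. That array was also highest in 8 of 10 Kupffer cell markers and 6 of 12 stellate cell markers. It was highest in 3 of 11 endothelial markers and 0 of 5 cholangiocyte markers. The summed linear signal of the 6 markers was 232 to 385 in CREB-H-ΔTC livers and 185 to 243 in GFP livers. The markers were dim, with a mean log2 signal of 5.15 to 5.77 in CREB-H-ΔTC livers and 4.90 to 5.23 in GFP livers, near the array median. The part of mesothelial cells in the Igfbp6 values was not tested.

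**Figure D4:**
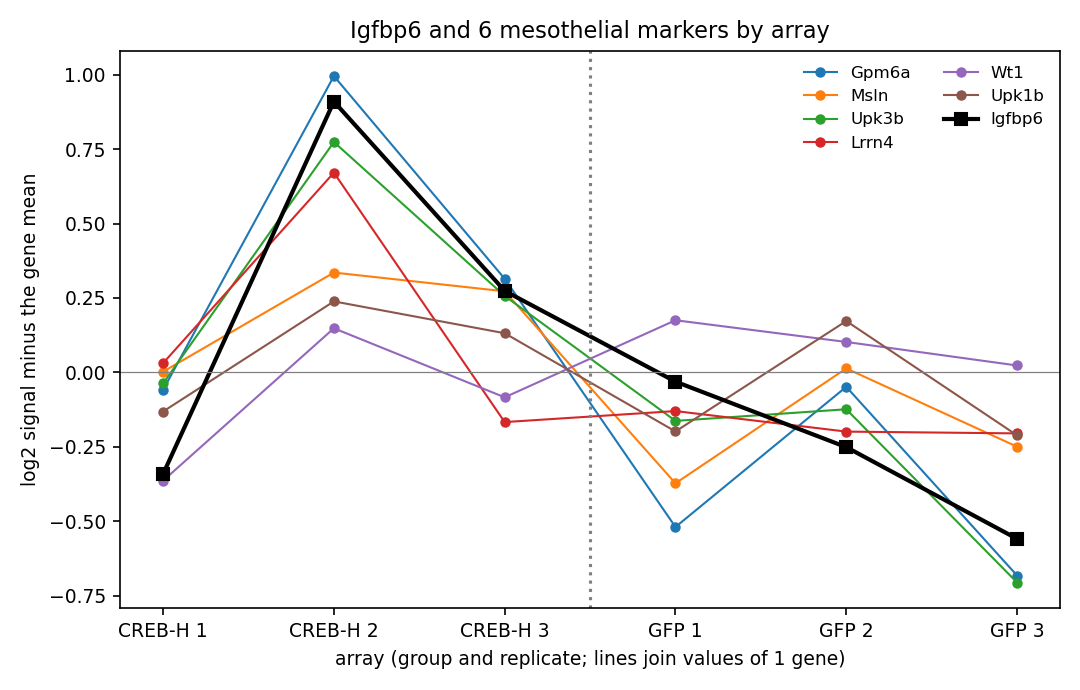
Log2 signal minus each gene's mean over the 6 arrays (vertical axis) for Igfbp6 (black squares) and 6 mesothelial markers (coloured circles), by array, with CREB-H-ΔTC arrays left of the dotted line and GFP arrays right of it. Igfbp6 and 5 of the 6 markers are highest in CREB-H-ΔTC replicate 2; Wt1 is the exception.

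Other cells of the liver were followed through their markers, because several binding proteins are made outside hepatocytes. All 10 Kupffer cell markers had a log2 difference above 0 (median 0.40, and 0.20 without GFP replicate 3), and none passed. All 10 were lowest in GFP replicate 3, beside 16.8% of all probe sets, and 8 were highest in CREB-H-ΔTC replicate 2, beside 15%. In 5 of the 10 both replicate 3 arrays lay beyond the other 4, beside 19% of all probe sets. The smallest p-values were those of Vsig4 (log2 difference 0.60), C1qc (0.39), C1qb (0.44) and Clec4f (0.36), all with overlapping groups. Their summed linear signal was 3681 to 6550 in CREB-H-ΔTC livers and 2783 to 5402 in GFP livers. Endothelial markers had a median difference of 0.11 over 11 genes. Of these, 10 were above 0 with all arrays and 7 without GFP replicate 3. The summed endothelial signal was 5776 to 6735 in CREB-H-ΔTC livers, against 5387 to 6772 in GFP livers. Clec4g (0.21), Cdh5 (0.26), Oit3 (0.16) and Pecam1 (0.17) came first by p. Stellate cell markers had a median of 0.018 over 12 genes and a summed signal of 4376 to 5795 in CREB-H-ΔTC livers, against 4360 to 5166 in GFP livers. Among these Pdgfrb differed by 0.19 without overlap, and Dcn (0.21), Col1a1 (0.22) and Des (-0.15) had overlapping groups. Hepatocyte markers had a median of 0.030 over 8 genes, with Ass1 (0.26), Apoa1 (0.099), Hpd (0.046) and Cps1 (0.038) first by p. Lymphocyte markers had a median of 0.21 over 5 genes, and 2 of the 5 had an unadjusted p under 0.05, both higher, beside 2.93% of all probe sets. These were the B cell genes Cd79a, with 5.63, 5.81 and 5.21 in CREB-H-ΔTC livers, against 5.14, 4.84 and 4.96 in GFP livers, and Ms4a1 (0.38, SE 0.15). Cd79a differed by 0.57 (SE 0.18). The groups of both genes did not overlap, beside 5.23% of all probe sets that were higher without overlap. For Ms4a1 the nearest values were almost equal, at 4.549 in CREB-H-ΔTC replicate 3 and 4.548 in GFP replicate 3. The Ms4a1 signals were also dim, at 4.24 to 4.99. Without GFP replicate 3 the differences were 0.56 for Cd79a and 0.44 for Ms4a1. Both again had an unadjusted p under 0.05, beside 7.63% of all probe sets. Cd3e of T cells differed by -0.14 and the leukocyte gene Ptprc by 0.21, with overlap. Cholangiocyte markers had a median of 0.13 over 5 genes. Of these, 2 had an unadjusted p under 0.05 in opposite directions, beside 6.89% of all probe sets: Sox9 at -0.36 (SE 0.11) and Krt19 at 0.38 (SE 0.12). The same 2 had no overlap, beside 12.3% of all probe sets. With GFP replicate 3 left out the differences were -0.41 for Sox9 and 0.33 for Krt19. Sox9 alone stayed under 0.05, beside 7.63% of all probe sets. Krt19 was dim, at 4.14 to 4.75, below the median of all probe sets. Krt7 differed by 0.25 and Epcam by 0.13, with overlap. Neutrophil markers had a median of -0.085 over 4 genes, all below 0 and all with overlap: S100a9 (-0.14), Ly6g (-0.095), Mpo (-0.073) and S100a8 (-0.075). No marker of any of these cell types passed after adjustment. These signals have no true zero, so absence of a cell type cannot be read from them. The part of these cells in the values of Igfbp3, Igfbp5 and Igfbp7 was not tested.

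The rest of the growth hormone and IGF pathway was examined through 42 further genes, of which 37 had a probe set. None passed the limma test over all probe sets (lowest adjusted p = 0.696). At an unadjusted p under 0.05, 2 were higher and 0 lower with CREB-H-ΔTC, beside 2.93% and 3.97% of all probe sets. Log2 differences were above 0 in 22 and below 0 in 15, with a median of 0.029 against 0.0030 over all genes. Groups did not overlap in 5 of the 37, beside 12.3% of all probe sets.

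Jak2, the kinase that the growth hormone receptor activates, had signals of 8.38, 8.18 and 8.40 in CREB-H-ΔTC livers, against 7.74, 8.10 and 8.04 in GFP livers. Stat5b, the factor that carries the signal to Igf1, had 7.84, 8.04 and 8.08 in CREB-H-ΔTC livers, against 7.44, 7.80 and 7.77 in GFP livers. Neither gene's groups overlapped, with log2 differences of 0.36 (SE 0.13) for Jak2 and 0.31 (SE 0.14) for Stat5b, in the direction opposite to Igf1 and Ghr. Ptpn11, a phosphatase that acts on this pathway, differed by -0.16 (SE 0.10) without overlap. These 3 differences were 0.40, 0.36 and -0.17 without GFP replicate 3.

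Among ligands, receptors and processing factors, Kazald1, an IGF-binding protein-related secreted protein, had 4.71, 4.82 and 4.81 in CREB-H-ΔTC livers, against 4.29, 4.61 and 4.49 in GFP livers (log2 difference 0.32, SE 0.12, and 0.33 without GFP replicate 3). Its groups did not overlap, but the signal was dim, below the median of all probe sets. Igf2r, the receptor that clears IGF-2, differed by 0.23 (SE 0.14), and Pappa2, a protease of IGFBP3 and IGFBP5, by -0.16 (SE 0.11) at the dim level of 3.06 to 3.46. The values for Esm1 and Igfbpl1 were 0.48 (SE 0.23) and 0.26 (SE 0.13), with overlapping groups. Without GFP replicate 3 the difference was 0.36 for Igf2r, -0.18 for Pappa2, 0.26 for Esm1 and 0.33 for Igfbpl1. Fgf21, a fasting-induced liver hormone that blunts growth hormone signalling in mouse liver, had 7.27, 6.63 and 10.30 in CREB-H-ΔTC livers, against 5.24, 4.99 and 5.71 in GFP livers. Its groups did not overlap and CREB-H-ΔTC replicate 3 stood highest, without a call (limma adjusted p = 0.667).

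The secretion pattern of growth hormone is read in mouse liver through genes with a sex bias. In 19 of 19 measured genes of a male-biased list and 21 of 22 of a female-biased list, both replicate 3 arrays lay beyond the other 4, beside 19% of all probe sets. The exception was Cyp17a1, given above, which was low in GFP replicate 3 alone. Between the groups, no gene of either list passed with all arrays. None had an unadjusted p under 0.05 either, beside 6.89% of all probe sets. That fit had no term for Y-linked signal, so the gap between arrays with and without it widened the SE. For Elovl3 the SE was 1.31 with all arrays and 0.33 among the 4 arrays that lacked Y-linked signal. The test could therefore miss differences between the groups in these genes. When GFP replicate 3 was left out, 1 of the 22 female-biased genes had an unadjusted p under 0.05, beside 7.63% of all probe sets (Cyp2c39, -1.06, named after its values were seen). The male-biased list had a median log2 difference of -0.39 with all arrays and 0.25 without GFP replicate 3, and the female-biased list -0.012 and -0.74. Once GFP replicate 3 is left out, CREB-H-ΔTC replicate 3 is the only array with Y-linked signal, which then differs between the groups. Elovl3, a male-biased elongase, had 6.74, 7.11 and 10.93 in CREB-H-ΔTC livers, against 9.56, 8.68 and 12.19 in GFP livers, a log2 difference of -1.88 (SE 1.31, adjusted p = 0.848). Hsd3b5, a male-biased steroid enzyme, had 2.85, 2.52 and 5.97 in CREB-H-ΔTC livers, against 4.39, 2.86 and 9.94 in GFP livers. Without GFP replicate 3 the differences were -0.86 for Elovl3 and 0.15 for Hsd3b5. Serpina1e, a serpin gene, differed by -0.64 (SE 0.60) with all arrays and -0.15 without GFP replicate 3, and Moxd1 by -0.41 (SE 0.34) and -0.041. Within each class of Y-linked signal, every CREB-H-ΔTC array lay below every GFP array in 5 of the 19 male-biased genes, beside 12% of all probe sets. Elovl3 and Hsd3b5 were among these 5, Hsd3b5 by only 2.85 against 2.86, and Serpina1e and Moxd1 were not. Among the 4 arrays that lacked Y-linked signal, 14 of the 19 were below 0 and 5 above. In the replicate 3 pair 16 were below 0 and 3 above. Of the 22 female-biased genes, 11 were below 0 and 11 above among those 4 arrays, and 9 below and 13 above in the pair. Within each class, every CREB-H-ΔTC array lay above every GFP array in 5 of the 22. Every such array lay below in 1 of the 22, beside 12% of all probe sets. Shares of all probe sets were not counted for the splits or for the higher count. Of the female-biased genes, Prom1 differed by 0.66 (SE 0.34), Abcd2, a peroxisomal transporter, by 1.15 (SE 0.58), Cyp17a1 by 1.05 (SE 0.87) and Fmo2, a monooxygenase, by 0.86 (SE 0.90), all with overlap. Prom1, Abcd2 and Fmo2 were among the 5 genes that were higher within each class of Y-linked signal, and Cyp17a1 was not. Leaving out GFP replicate 3 gave 0.42 for Prom1, 0.52 for Abcd2, -0.062 for Cyp17a1 and -0.19 for Fmo2.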

How the data were processed

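Total RNA of 6 livers was read on 1 biotin-labelled array each. The authors deposited 1 log2 signal per probe set and array. The submitters' processing notes name the Transcriptome Analysis Console, with no version or settings. That the scale is log2 was read from the range of the values (1.42 to 13.9). Probe sets were named from the platform annotation in GEO, and 21994 of 22180 genes were matched to RefSeq (GRCm38.p6) by Entrez ID. A gene's brightest probe set was used. Levels of different genes are not compared.

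The comparison used lmFit and eBayes of limma 3.58.1 (R 4.3.3) over all 41345 probe sets, two-sided, with Benjamini-Hochberg adjustment and a threshold of 0.05, and the code was tested on simulated data. P-values measure the spread between 3 mice per group. The 10 genes, the lists, the alternatives and the naming rule were chosen with earlier results of these data known. Named genes were the 10 genes, Creb3l3, Apoa4 and Fgf21, the 4 genes per list with the smallest unadjusted p and any without overlap. Also named were the 5 nearest profiles of Igf1, Igfbp1 and Igfbp2 (mean signal at least 6, SD at least 0.8 times that gene's). Predicted and clone names were left out of the profile search. Alternatives changed the normalization, the filter on dim probe sets, the variance model, array weights, the choice of probe set, the replicate block, the arrays included and a term for Y-linked signal. Figures used matplotlib 3.10.9.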

Additional observations from a re-analysis of the deposited data

How the results depend on the processing

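None of the 10 genes and none of the 37 further pathway genes passed under any of 18 alternatives (lowest adjusted p of the 10 genes 0.421). Igfbp2, Igfbp6, Igfbp7, Igf1 and Ghr kept their sign in all 18, and 10 of 180 values turned sign. The dim filters, the variance model, the choice of probe set, the replicate block and the Y-linked term left every log2 difference unchanged. No sign could turn under those alternatives, so the count of 180 overstates what was tested. All 10 turns came when arrays were left out. Among the 4 arrays without Y-linked signal Igfals was 0.023, Igfbp1 -0.49, Igfbp4 0.036 and Igfbp5 -0.10. With 1 array left out, log2 differences ran from -0.36 to 1.17 for Igfbp1, -0.18 to 0.36 for Igfbp3, -0.12 to 0.055 for Igfbp4 and -0.041 to 0.53 for Igfbp5. Igfbp1 was -0.36, Igfbp3 -0.16 and Igfbp5 -0.041 without GFP replicate 3, Igfbp3 -0.11 and -0.18 without CREB-H-ΔTC replicates 1 and 2, and Igfbp4 0.055 without CREB-H-ΔTC replicate 3. Igfbp6 ran from 0.25 to 0.87 and Igfals from -0.60 to -0.10. The cause was not tested. Over all probe sets the 2 calls became 0 with the replicate number as a block (7.8% of probe sets at an unadjusted p under 0.05 in limma, beside 6.89% without it), 1 with a term for Y-linked signal, 0 among the 4 arrays without it (8.07% at an unadjusted p under 0.05), and 0 to 2 with 1 array left out. The groups share replicate numbers, but the deviations of same-numbered arrays correlated at 0.0785, 0.127 and 0.33 for replicates 1, 2 and 3, and not every array correlated best with its own number, so no pairing was assumed. The block gave Igfbp2 an adjusted p of 0.491 and changed no call among the 10 genes. With 3 arrays per group, the intervals of 9 of the 10 genes hold 0, and that of Igfbp2 (0.38 to 1.15) does not.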

Other observations

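Some genes of the growth hormone list had single high or low arrays; they were picked after their values were seen. Socs2, a feedback inhibitor that growth hormone induces through STAT5, was 9.42 in CREB-H-ΔTC replicate 1 against 7.18 to 8.27 on the other arrays. Cish, a related early target, was highest on the same array, at 7.09 against 5.42 to 6.17. Onecut1, a liver transcription factor that growth hormone induces in rats, was 6.09 in CREB-H-ΔTC replicate 3 against 7.55 to 9.11 elsewhere. Bcl6, a repressor of STAT5 targets, was 7.43 in CREB-H-ΔTC replicate 3 and 7.74 in GFP replicate 1, against 5.83 to 6.39 on the other 4 arrays. The groups overlapped in all 4 genes, and none passed the limma test.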
